A study of Mus musculus with 6 samples.

Results

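The monocyte chemoattractant proteins (MCPs) are small secreted CC chemokines whose genes lie side by side on mouse chromosome 11, and 4 of them are described here: Ccl2, Ccl7, Ccl8 and Ccl12. They were taken by gene symbol as 4 of the 56691 genes in the deposited table. The group was selected on its expression difference between contact and transwell libraries, which was already known, so that difference is given for its members as a description and not as a test. RNA was sequenced from mouse bone marrow-derived macrophages, cells grown out of bone marrow with the growth factor M-CSF, which had been co-cultured with mEC25, a cancer cell line, and then sorted. In the contact group (3 libraries) the 2 cell types shared a well directly, and in the transwell group (3 libraries) they were kept apart and shared medium. All 6 libraries therefore come from sorted macrophage samples that had M-CSF and mEC25 cells nearby. Macrophages without cancer cells and mEC25 cells alone were not analysed here. The sources used here do not give the strain, age and sex of the mice, the sort markers or the duration of culture. Nothing in the labels says that replicates came from separate animals or cultures. The p-values then measure only how far these libraries spread, which may be technical.

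MCP chemokines draw monocytes out of the blood and marrow by binding the receptor CCR2. Activated macrophages, fibroblasts and many epithelial cells make them. CCL2 and CCL7 are the chief CCR2 ligands in the mouse, CCL12 is a further CCR2 ligand found in rodents, and mouse CCL8 also acts through CCR8. Their genes are switched on by inflammatory cytokines and Toll-like receptor ligands through NF-kB, and by interferons.

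Libraries held 18173192 to 22563835 counts, with 20911880 to 22563835 in contact and 18173192 to 18895818 in transwell libraries. Of 14113 genes with enough counts to be tested with edgeR's quasi-likelihood test, 3016 were higher and 2270 lower in contact at a Benjamini-Hochberg adjusted p under 0.05. That is 37.5% of tested genes in either direction, 21.4% higher and 16.1% lower. The split moved with the scaling, to 3945 higher and 1450 lower with library totals alone and to 2390 higher and 3418 lower after quantile normalization of FPKM. With library totals the median log2 difference of all tested genes shifted by 0.12 upwards. The 12 macrophage markers summed to between 18780 and 20820 FPKM in contact and between 19960 and 21080 in transwell libraries. FPKM are fragments per kilobase of exon, scaled to library depth. All 12 had counts in both groups, and most of the sum was Lyz2 (means of 12180 in contact and 13310 in transwell). By edgeR 3 of the 12 were higher and 6 lower in contact, from Fcgr1 (log2 difference -1.91) to Cd14 (1.49). The sums therefore do not show that these markers were alike in the groups. The 20 epithelial markers summed to between 963 and 1695 FPKM in contact and between 5.19 and 5.58 in transwell libraries, where 1 of them had no count. Their part in the differences below was not tested.

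Ccl2 and Ccl7 were the 2 abundant members, and both were lower in every contact library than in any transwell library. Ccl2 (ENSMUSG00000035385, chromosome 11, 82035571 to 82037453 on GRCm38, plus strand, 3 exons, protein-coding), the founding monocyte attractant, stood at 106.96, 78.57 and 95.97 FPKM in transwell replicates 1 to 3. In contact replicates 1 to 3 it stood at 16.71, 17.27 and 14.92 FPKM. The lowest transwell library lay far above the highest contact library, so the groups did not overlap. The means were 93.8 ± 14.3 FPKM (SD, n = 3) in transwell and 16.3 ± 1.23 in contact, so that contact libraries held 17.4% of the transwell level. The fitted log2 difference, contact minus transwell, was -2.64 ± 0.13 (SE). Among all genes listed, Ccl2 ranked 502 by mean FPKM in transwell and 2978 in contact.

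Ccl7 (ENSMUSG00000035373, 82045712 to 82047525 on the same strand, 3 exons, protein-coding), which also recruits monocytes, followed Ccl2 closely. It measured 62.70, 44.72 and 55.26 FPKM in transwell and 10.24, 12.30 and 8.83 FPKM in contact replicates 1 to 3. The groups were again well apart. The means of 54.2 ± 9.03 and 10.5 ± 1.75 FPKM (SD, n = 3) put contact at 19.3% of transwell, and the fitted log2 difference was -2.49 ± 0.16 (SE). Ccl7 ranked 896 in transwell and 4252 in contact by mean FPKM.

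Ccl12 (ENSMUSG00000035352, 82101845 to 82103400, plus strand, 3 exons, protein-coding), the CCR2 ligand specific to rodents, was present at a low level in transwell and close to the limit of the depth in contact. Its counts were 53, 19 and 35 in transwell and 6, 1 and 3 in contact replicates 1 to 3, or 5.22, 1.95 and 3.51 against 0.50, 0.09 and 0.25 FPKM. Every contact library was below every transwell library. The sum of 107 transwell counts against 10 contact counts gave a transwell level 12.6 times that of contact at equal depth, with an exact 95% counting interval of 6.61 to 27.1, which leaves out the spread between libraries. The fitted log2 difference was -3.72 ± 0.57 (SE), the least precise of the 3.

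Ccl8 (ENSMUSG00000009185, 82115185 to 82116799, plus strand, 3 exons, protein-coding) was barely detected in either group. It had 2, 1 and 2 counts in transwell and 1, 2 and 0 in contact replicates 1 to 3, and the groups overlapped. The 5 transwell and 3 contact counts gave a ratio of 1.97 with an exact 95% counting interval of 0.383 to 12.7, so that no difference was detectable at this depth. In contact replicate 3, where it had no count, up to 3 counts or 0.135 CPM (counts scaled to equal library depth) are allowed, the one-sided 95% limit of a count of 0. Ccl8 was too low to enter the fit. Intervals and floors of this kind cover counting error only.

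**Figure D1:**
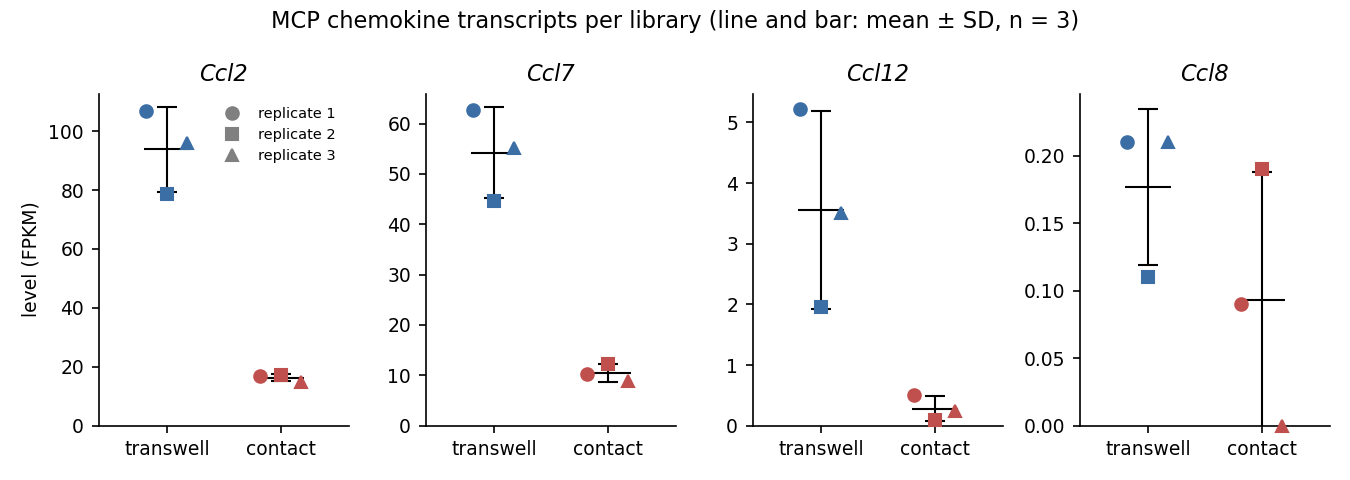
Levels of the 4 MCP chemokine transcripts in FPKM (vertical axes, separate scale for each gene) in the 3 transwell and 3 contact libraries; symbols are replicates, and the line with its bar is the mean ± SD. Ccl2, Ccl7 and Ccl12 do not overlap between groups, and Ccl8 (at most 0.21 FPKM) does.

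All 3 members past the filter on low counts were thus lower in contact without overlap of the groups, against 15.3% of all tested genes. Their fitted values were negative too. The 16.1% given above counts genes lower past the edgeR threshold. The 3 members were part of that fit, but their calls are not used as a result here. Since the members were picked with this contrast known, nothing is read from their count. Few genes had a lower fitted log2 difference: 17 of 14113 for Ccl2, 21 for Ccl7 and 5 for Ccl12. These places come from the contrast used to pick the members, so nothing is read from them either. Ccl12 passed the filter through its transwell counts alone, and its place rests on 10 contact counts. In bulk RNA, fewer cells expressing a gene and less RNA per cell cannot be told apart.

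The order of levels was the same in both groups, Ccl2 above Ccl7, then Ccl12 and then Ccl8. In transwell each step was wider than the spread, since the lowest Ccl2 library (78.57 FPKM) was above the highest Ccl7 library (62.70) and the lowest Ccl12 library (1.95) above the highest Ccl8 library (0.21). In contact the lowest Ccl2 library (14.92 FPKM) was above the highest Ccl7 library (12.30), but Ccl12 (0.09 to 0.50) and Ccl8 (0 to 0.19) overlapped and did not differ beyond their spread. The deposited exonic length of Ccl2, 1138 bases, is longer than its 813-base protein-coding transcript in GENCODE. Scaled to that transcript Ccl2 would stand at 131 FPKM in transwell and 22.8 FPKM in contact, 1.4 times the deposited level, with the order of the members as before. For the other members both lengths were equal.

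Summed over the 4 genes by the deposited lengths, MCP transcripts amounted to 151.8 ± 25.1 FPKM (SD, n = 3) in transwell and 27.1 ± 2.95 FPKM in contact. Scaled to its transcript, Ccl2 would have a larger share and a higher ratio to the other members, in both groups. Ccl2 made up 61.9 ± 0.80% of that sum in transwell and 60.2 ± 2.19% in contact, so its share was alike within the spread. Ccl7 made up 35.7 ± 0.08% and 38.4 ± 2.45%, and Ccl12 2.27 ± 0.71% and 1.05 ± 0.76%.

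Ccl2 and Ccl7 kept a nearly fixed ratio across the transwell libraries. The ratio of Ccl2 to Ccl7 on the FPKM scale was 1.71, 1.76 and 1.74 in transwell replicates 1 to 3, a coefficient of variation of 1.48%, while the levels of Ccl2 and Ccl7 themselves varied by 15.3% and 16.7% across the same libraries. Counting error alone would give this ratio a variation of about 4.22%, more than was seen. The closeness of these 3 ratios is therefore not read as a trait of the genes. In contact the ratio was 1.63, 1.4 and 1.69, a variation of 9.59% where counting error alone would give 8.95%, and there the ratio varied more than Ccl2 itself (7.53%) and less than Ccl7 (16.7%). The mean ratios were 1.73 ± 0.0257 in transwell and 1.57 ± 0.151 in contact (SD, n = 3), and on the log2 scale they differed by -0.14, as much as the SD of 0.14 among contact libraries. Every contact ratio was below every transwell ratio, by a margin within counting error. On the same scale the ratio of Ccl2 to Ccl12 was 29.4 ± 10.1 in transwell and 95 ± 84.9 in contact, the latter resting on 10 Ccl12 counts.

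**Figure D2:**
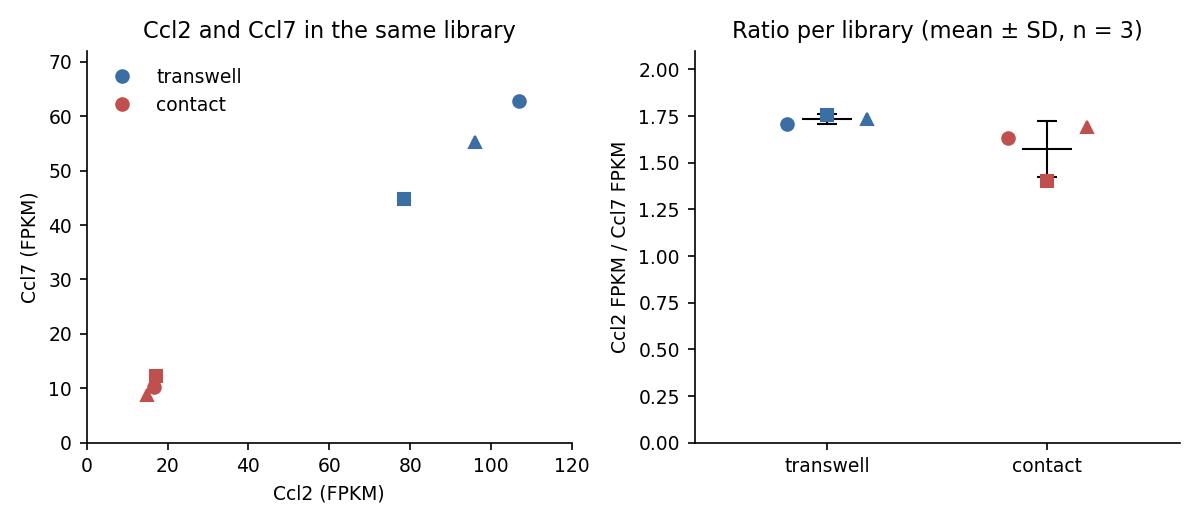
Left, Ccl7 against Ccl2 in each library, both in FPKM; right, the ratio of the 2 in each library, with mean ± SD (n = 3). Transwell ratios lie between 1.71 and 1.76 although both levels change between libraries, and contact ratios between 1.4 and 1.69.

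The libraries ranked alike for the members within the transwell group, where Ccl2, Ccl7 and Ccl12 were each highest in replicate 1 and lowest in replicate 2. Of all tested genes 25.2% had that order. In transwell replicates 1 to 3 the fibroblast markers, at 16.7, 8.88 and 9.16 FPKM, had the order of the members. The mast cell and basophil markers (3.24, 1.42 and 1.54 FPKM) and the lymphocyte markers (3.71, 2.66 and 3.25 FPKM) had it too. The epithelial markers (5.58, 5.19 and 5.2 FPKM) were highest in replicate 1 and nearly level in replicates 2 and 3. The neutrophil markers, at 1143, 509 and 486 FPKM, were highest in replicate 1 but lowest in replicate 3. The macrophage, endothelial and dendritic cell sums did not have the members' order. In contact, Ccl2 and Ccl7 were highest in replicate 2 and lowest in replicate 3, as for 23% of tested genes, and the epithelial markers had the same order with 1122, 1695 and 963 FPKM in replicates 1 to 3. Ccl12 did not share that order and was highest in contact replicate 1. Nor did the other marker sums share it. The neutrophil markers were at 1129, 869 and 762 FPKM and the fibroblast markers at 39.5, 28.7 and 19.0 FPKM in contact replicates 1 to 3. What these markers contributed to the order was not tested.

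Markers of other cell types that the sorted samples could hold were summed in the same way. Fibroblast markers summed to 19.0 to 39.5 FPKM in contact and 8.88 to 16.7 in transwell, with 6 of 10 tested markers higher and 0 lower by edgeR (0 lower also at an unadjusted p under 0.05, by DESeq2 and by limma on log2(FPKM + 1)). After quantile normalization, with limma, 3 were higher and 1 lower. Among genes with a mean of at least 1 FPKM 3 were higher. Endothelial markers summed to 12.5 to 14.9 against 7.25 to 7.63 FPKM, most of it from Pecam1 (11.03 to 12.94 in contact), which leukocytes also express. Of 4 tested, 3 were higher and 1 lower, the von Willebrand factor gene Vwf (-0.76 ± 0.16). After quantile normalization, or among genes with a mean of at least 1 FPKM, 1 endothelial marker was higher. Mast cell and basophil markers summed to 2.75 to 6.35 against 1.42 to 3.24 FPKM, and the ranges overlapped, with 1 of 3 tested higher and 0 lower by edgeR (0 lower also at an unadjusted p under 0.05, by DESeq2 and by limma). Under the same 2 settings 0 mast cell and basophil markers were higher. Among these markers the mast cell protease genes Mcpt4, Tpsb2 and Cma1 had no count in any library. Neutrophil markers summed to 762 to 1129 FPKM in contact and 486 to 1143 in transwell, with most of the sum from S100a8 and S100a9. The ranges overlapped through transwell replicate 1 (1143 FPKM), while replicates 2 and 3 stood at 509 and 486 FPKM. Of 8 tested neutrophil markers 3 were higher in contact by edgeR, against 21.4% of all tested genes. These were the granule genes Mpo (2.61 ± 0.37) and Elane (2.78 ± 0.29) and Retnlg (2.90 ± 0.50). By edgeR 0 were lower (0 also at an unadjusted p under 0.05, by DESeq2 and by limma). Without transwell replicate 1, or with the replicate number as a block, 6 were higher. With no filter on low counts 5 were higher and 1 lower. Lymphocyte markers (5.70 to 7.45 against 2.66 to 3.71 FPKM) and dendritic cell markers (10.3 to 12.6 against 6.08 to 6.85 FPKM) were low, and both sums were higher in contact without overlap. In each list 1 of 2 tested markers was higher by edgeR and the other was not past the threshold. That changed in some alternatives, with 1 lymphocyte marker lower without contact replicate 3 and 1 dendritic cell marker lower after quantile normalization.

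The 4 genes lie within 81.2 kb on 1 strand, in the order Ccl2, Ccl7, Ccl12 and Ccl8, with the eosinophil attractant gene Ccl11 between Ccl7 and Ccl12. Ccl7 starts 10.1 kb and Ccl12 66.3 kb from the start of Ccl2, and Ccl8, with almost no counts, 79.6 kb from it. Ccl11, which starts 22.3 kb from Ccl2, had 6 counts over the contact and 0 over the transwell libraries, and Ccl1, a CCR8 ligand on the other strand, had 8 and 5. The flanking genes were nearly silent too, with 8 and 0 counts for Tmem132e, 7 and 0 for Asic2 and none in either group for Spaca3. None of these 5 genes had enough counts to be tested. The gene model Gm17268 overlaps Ccl2 on the opposite strand and had 0 counts in all libraries. The sources used here do not say whether the counting used strand.

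**Figure D3:**
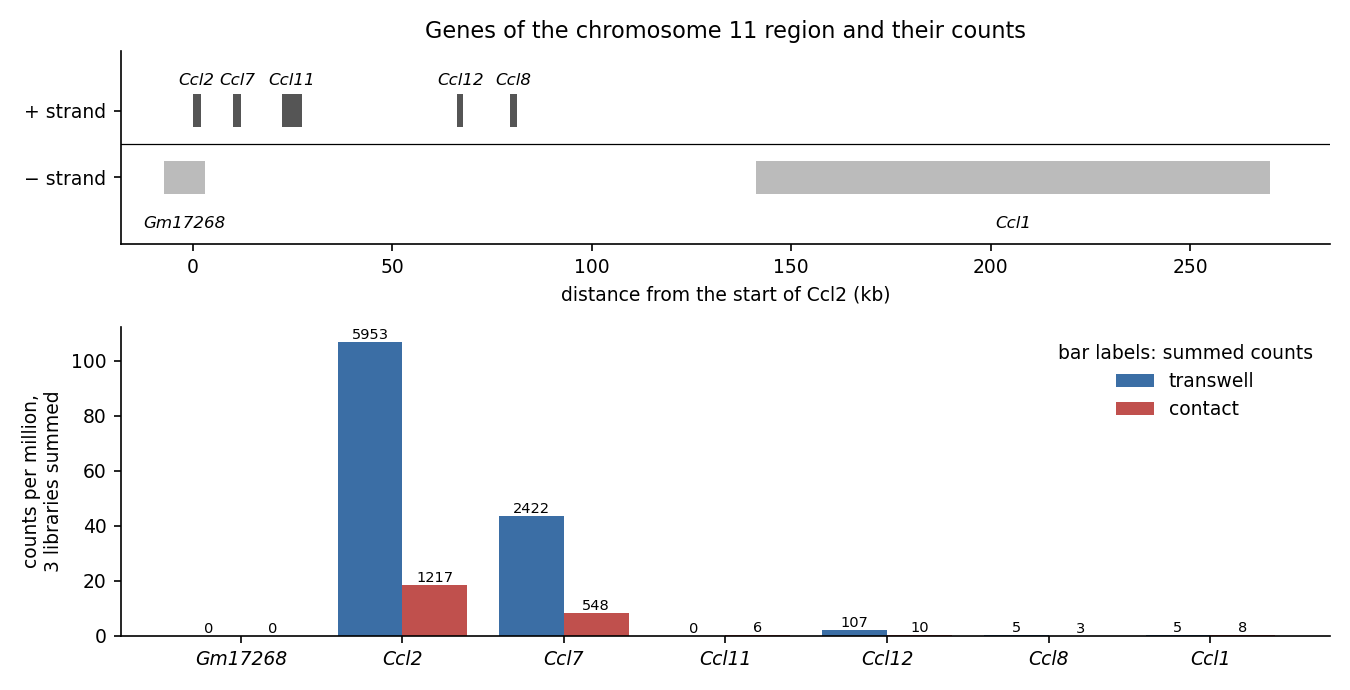
Top, genes around Ccl2 by distance from its start in kb, with plus-strand genes above the line; bottom, CPM over the 3 libraries of each group, with the summed counts printed on each bar. Ccl2 (5953 against 1217 counts) and Ccl7 (2422 against 548) hold nearly all counts of the region.

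The members are paralogs, and their coding sequences shared 64.6% (Ccl7 with Ccl8) to 70.8% (Ccl8 with Ccl12) of aligned bases. The longest identical run between the protein-coding transcripts of any pair was 23 bases, for Ccl2 and Ccl7, and between 11 and 17 bases for the other pairs. The sources used here do not say how reads that fit more than 1 member were treated.

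The upstream sequence could be shown for Ccl12 and Ccl8, from RefSeq's annotation of GRCm38.p6. They are given because the neighbours differed in level, with Ccl12 at 107 and Ccl8 at 5 counts over the transwell libraries. Each run holds the 250 bases before the annotated start, plus strand, 5′ to 3′, with the match to a TATA box (TATAAA, searched on both strands) in capitals. The matches begin 31 bases (Ccl12) and 32 bases (Ccl8) before the start, and 12.3% of 32536 distinct windows of that length hold one.
Ccl12, chr11:82101595-82101844: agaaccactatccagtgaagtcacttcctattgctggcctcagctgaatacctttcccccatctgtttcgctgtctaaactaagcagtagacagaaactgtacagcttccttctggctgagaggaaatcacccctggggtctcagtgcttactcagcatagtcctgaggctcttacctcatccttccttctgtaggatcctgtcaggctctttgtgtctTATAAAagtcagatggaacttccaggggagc
Ccl8, chr11:82114935-82115184: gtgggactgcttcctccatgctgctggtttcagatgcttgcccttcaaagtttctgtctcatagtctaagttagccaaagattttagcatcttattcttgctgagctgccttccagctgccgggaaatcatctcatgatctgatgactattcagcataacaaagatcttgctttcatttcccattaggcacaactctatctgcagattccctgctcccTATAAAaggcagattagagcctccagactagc

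Neither window held a match to the other patterns searched on both strands. These were an AP-1 site (TGANTCA, in 6.73% of windows), a STAT site (TTCNNNGAA, 7.04%), an NF-kB site by its usual consensus (3.92%), a C/EBP site (TTNNGCAA, 9.57%), the core of the interferon-stimulated response element by its name (2.98%), a CCAAT box (CCAAT, 33.8%) and a GC box (GGGCGG, 33.0%). A match is a description of letters, and a missing match says only that these letters are not in this window.

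Other CC chemokine genes went both ways. Of 13, 8 had enough counts, 2 rose and 3 fell by edgeR, and their median log2 difference was -0.0027 against 0.03 over all tested genes. Over the alternatives that median lay between -0.18 (genes with a mean of at least 1 FPKM) and 0.24 (without transwell replicate 1). Ccl5, a T cell and monocyte attractant, stood at 57.66, 58.47 and 58.34 FPKM in transwell and 18.65, 19.53 and 19.38 FPKM in contact, without overlap (log2 difference -1.72 ± 0.08 SE, edgeR adjusted p = 6.2e-07). Ccl6 (-0.70 ± 0.07) and Ccl9 (-0.34 ± 0.06) fell by less. Ccl3 and Ccl4, the macrophage inflammatory proteins, rose (0.74 ± 0.08 and 0.56 ± 0.09). Ccl3 reached 322.88 to 353.45 FPKM in contact and 172.33 to 201.19 in transwell libraries, above Ccl2 in both groups.

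**Figure D4:**
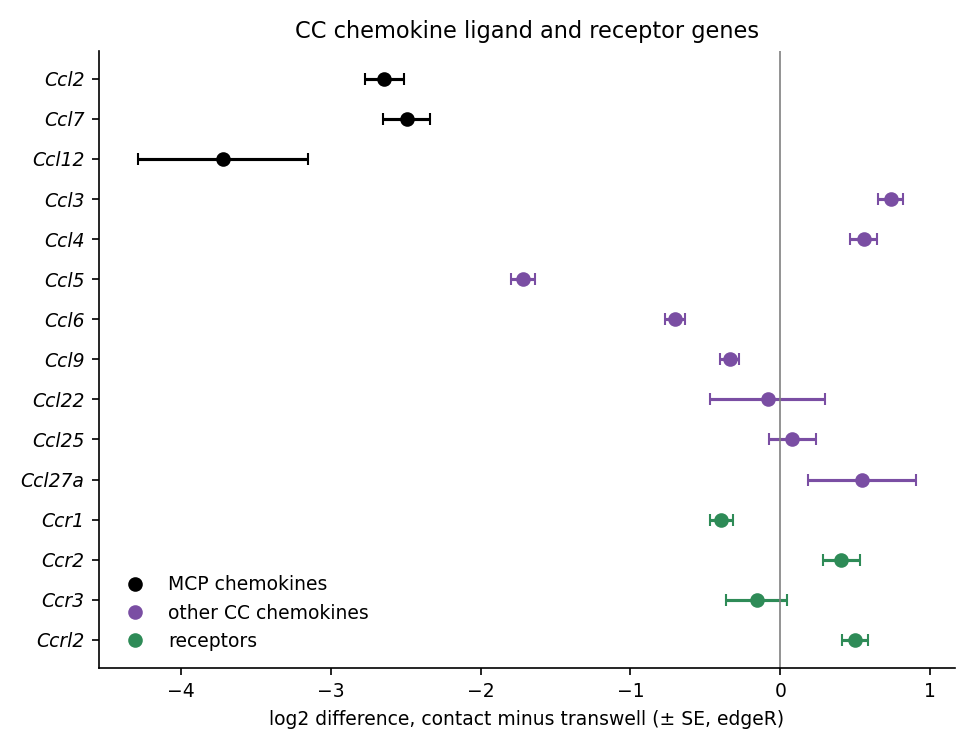
Log2 difference, contact minus transwell, with its SE, of CC chemokine ligand and receptor genes with enough counts. Ccl12, Ccl2 and Ccl7 lie lowest, from -3.72 to -2.49, and the other ligands and the receptors between -1.72 and 0.74.

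The main MCP receptor gene moved the other way from its ligands. Ccr2 stood at 8.48, 10.03 and 10.73 FPKM in contact and 5.90, 6.64 and 7.81 FPKM in transwell replicates 1 to 3, and the groups did not overlap. It rose by 0.41 ± 0.12 on the log2 scale (edgeR adjusted p = 0.0261). The call ended without contact replicate 2 (0.39, adjusted p = 0.0871), contact replicate 3 (0.33, adjusted p = 0.0931) or transwell replicate 1 (0.32, adjusted p = 0.065). Ccrl2, an atypical receptor related to CCR2, rose from between 18.29 and 18.66 to between 26.08 and 30.19 FPKM (0.50 ± 0.08, adjusted p = 0.00128). Ccr1, a receptor for CCL7 among others, fell from between 46.29 and 50.58 to between 37.37 and 42.39 FPKM (-0.39 ± 0.08, adjusted p = 0.00298). Ccr3, an eosinophil receptor gene, overlapped between groups (1.4 to 1.47 against 1.18 to 1.90 FPKM) and did not pass the test. In all, 2 of 5 tested receptor genes rose and 1 fell. Ccr8 and the atypical receptor genes Ackr1, Ackr2 and Ackr4, which clear chemokines, had at most 0.09 FPKM in any library and were not tested.

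Genes that carry the signal from chemokine receptors changed in both directions. Of 19 tested, 10 fell and 5 rose, with a median of -0.22. The small GTPase gene Rac2 went from 243.79 to 274.24 FPKM in transwell to 118.63 to 132.10 in contact (-1.15 ± 0.08, edgeR adjusted p = 4.6e-06). The arrestin gene Arrb1 (-0.79 ± 0.07) and Dock2, a Rac activator in moving leukocytes (-0.79 ± 0.11), fell, and the brakes on G protein signalling Rgs2 (0.96 ± 0.08) and Rgs1 (0.76 ± 0.16) rose. With library totals alone 6 fell, with limma on log2(FPKM + 1) 5 fell, and without contact replicate 1 6 fell.

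Genes whose products cut or hold chemokines changed in both directions, with 7 of 15 tested higher and 7 lower and a median of 0.16. That median moved to -0.02 among genes with a mean of at least 1 FPKM, 0.49 after quantile normalization, 0.37 without contact replicate 2 and 0.34 without transwell replicate 2. Mmp8, a secreted collagenase, fell from between 218.20 and 242.74 to between 69.92 and 85.26 FPKM (-1.69 ± 0.09, edgeR adjusted p = 1.4e-06). Among the heparan sulfate proteoglycans, which bind chemokines at the cell surface and in matrix, Sdc1 rose (27.95 to 34.54 against 111.00 to 118.81 FPKM, log2 difference 1.77 ± 0.09) and Sdc3 fell (-1.36 ± 0.07). Hspg2 (3.49 ± 0.38) and Sdc2 (3.08 ± 0.26) rose from at most 0.26 FPKM in any transwell library. Both were highest in contact replicate 2 and lowest in contact replicate 3, the order of the epithelial markers given above, whose part was not tested.

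Cytokine, cytokine receptor and sensor genes, some known to induce MCP genes and others, such as Il10, to restrain inflammation, changed in both directions. Of 23 tested, 10 rose and 5 fell, with a median of 0.20. Il1b rose from between 156.24 and 157.66 to between 1379.88 and 1453.25 FPKM (3.05 ± 0.07, edgeR adjusted p = 3.0e-08). Il6 (2.23 ± 0.16) and the sensor genes Cd14 (1.49 ± 0.07) and Tlr2 (1.19 ± 0.07) rose. Tnf, named after its values were seen, went from 37.50 to 43.40 FPKM up to 60.63 to 64.63 FPKM (0.53 ± 0.08). The anti-inflammatory cytokine gene Il10 fell from between 9.66 and 12.64 to between 4.67 and 5.33 FPKM (-1.30 ± 0.14).

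Of 21 tested NF-kB, AP-1 and C/EBP genes, 15 rose and 1 fell (median 0.42). The inhibitor genes Nfkbie (1.5 ± 0.09) and Tnfaip3 (1.11 ± 0.10), both also NF-kB targets, rose with the subunit genes Nfkb1 (0.82 ± 0.09) and Nfkb2 (0.72 ± 0.08) and with the AP-1 gene Fosl2 (1.18 ± 0.07). Nfkbie, for example, was at 27.32 to 31.49 FPKM in contact and 9 to 10.01 FPKM in transwell. The gene that fell was Atf3 (-0.26 ± 0.08, edgeR adjusted p = 0.0284), named after its values were seen. Its call ended under 5 other scalings or tools (-0.23 to -0.14) and without contact replicate 1 (-0.29) or 2 (-0.20) or transwell replicate 1 (-0.22) or 3 (-0.28).

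Interferon signalling genes were lower or not past the threshold in the edgeR fit used throughout. Of 20 tested, 10 fell and 0 rose by edgeR, with 1 higher at an unadjusted p under 0.05 and 0 higher by DESeq2. In other settings some were called higher. There were 3 each by limma on log2(FPKM + 1) and log2(FPKM + 0.1), after quantile normalization and with library totals alone. There was 1 each with upper-quartile scaling, among genes with a mean of at least 1 FPKM and without transwell replicate 2. The median was -0.22. Usp18, a brake on interferon receptor signalling, fell from between 23.37 and 27.77 to between 5.42 and 5.59 FPKM (-2.31 ± 0.10, adjusted p = 4.4e-07). Irf7, a factor that amplifies the interferon response, fell from between 95.35 and 105.61 to between 25.98 and 28.87 FPKM (-2.00 ± 0.07). Stat2 (-1.1 ± 0.07) and Irf9 (-0.63 ± 0.08), which act together in carrying the interferon signal to the nucleus, fell by less.

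Genes of mRNA decay and of negative control of chemokine transcripts were also followed, and of 15 tested 5 rose and 1 fell (median 0.09, or 0.14 without contact replicate 2 and 0.05 without transwell replicate 3). Zfp36, the gene of tristetraprolin, a protein that destabilizes cytokine mRNAs, rose from between 126.61 and 138.41 to between 180.70 and 223.46 FPKM (0.43 ± 0.10, edgeR adjusted p = 0.00605). Zc3h12c (0.78 ± 0.18), Rc3h2 (0.56 ± 0.11), Rc3h1 (0.45 ± 0.12) and Zfp36l1 (0.36 ± 0.10) rose as well. The Rc3h1 call ended without contact replicate 2 (0.43) and the Zfp36l1 call without contact replicate 1 (0.36) or 3 (0.30) or transwell replicate 3 (0.36). The clock gene Per1, a glucocorticoid target named after its values were seen, fell (-0.26 ± 0.08), a call that ended under 5 other scalings, filters or tools (-0.24 to -0.13) and without contact replicate 1 (-0.26) or 2 (-0.22) or transwell replicate 3 (-0.26).

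Genes typical of the monocytes that MCP chemokines attract changed both ways, with 7 of 12 tested rising and 3 falling (median 0.65). Cx3cr1, a chemokine receptor gene of monocytes, rose from between 2.70 and 4.10 to between 10.04 and 11.47 FPKM (1.54 ± 0.14, edgeR adjusted p = 3.1e-05). Plac8 (1.23 ± 0.22) and the proteoglycan gene Vcan (1.15 ± 0.21), which also counts among the proteoglycans above, rose. Ly6c1 rose from at most 0.13 FPKM in transwell to between 3.60 and 6.33 FPKM in contact (5.75 ± 0.51). It was highest in contact replicate 2 and lowest in replicate 3, as the epithelial markers were, whose part was not tested. Its close copy Ly6c2 stood at 52.03 to 71.64 FPKM in transwell and 99.21 to 113.44 in contact, and the sources used here do not say how reads shared by the copies were counted. The 3 that fell, the integrin genes Itgb2 (-0.89 ± 0.08), Itgam (-0.55 ± 0.07) and Itgb1 (-0.22 ± 0.07), were named after their values were seen. The Itgb1 call ended under 6 other scalings, filters or tools (-0.19 to -0.10), and without contact replicate 1 (-0.19) or 2 (-0.20) or transwell replicate 2 (-0.20) or 3 (-0.24).

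**Figure D5:**
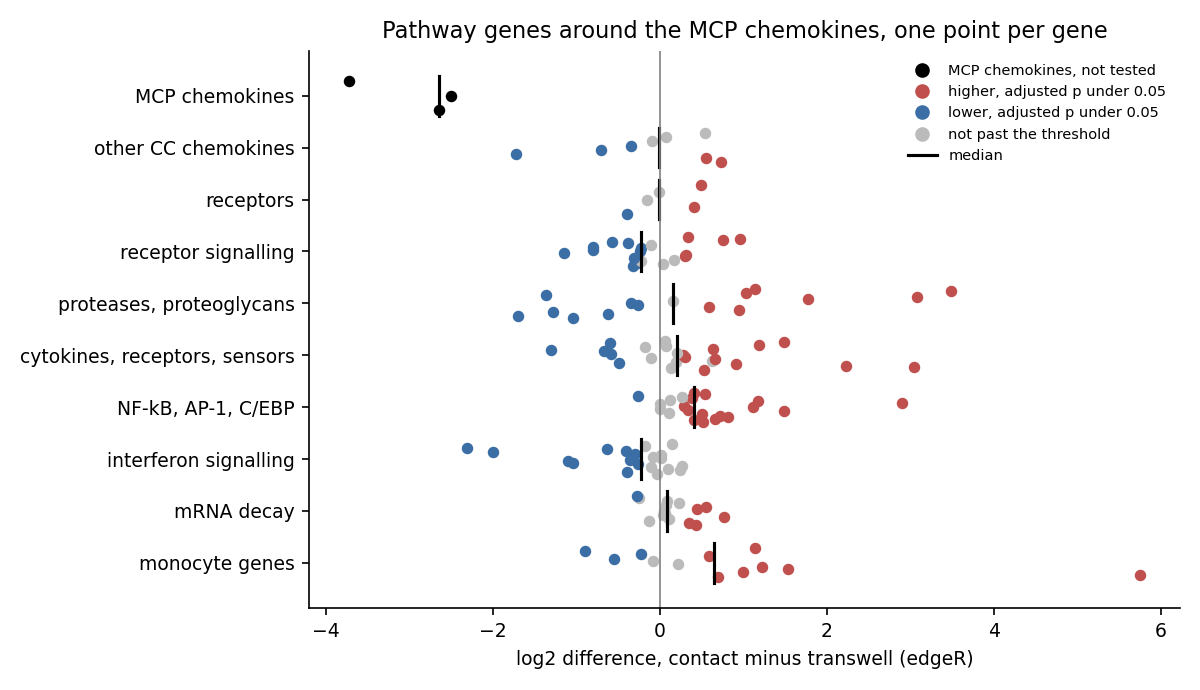
Log2 difference, contact minus transwell, of each gene with enough counts in the MCP group and in 9 lists of related genes; red and blue points passed the edgeR threshold, and the black line is the median of the list. The MCP genes, drawn in black and labelled as not tested because their calls are not used, lie between -3.72 and -2.49. In the NF-kB, AP-1 and C/EBP list 15 of 21 genes lie right of 0 as called, and 10 of 20 of the interferon list left of it.

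The patterns most like each member were sought over the 6 libraries among 9756 genes with a mean of at least 1 FPKM, by the root mean square difference between profiles of log2(CPM + 1), each centred on its own mean. Gene models with Gm numbers, Rik clones, pseudogenes, genes named only by a sequence identifier and the members themselves were not among the 9756. The genes share the same 6 libraries, and most of each profile is the difference between groups by which the members were picked. No compared gene was as near to Ccl2 as Ccl7, at a difference of 0.129, and none as near to Ccl7 as Ccl2. After Ccl7, the genes nearest Ccl2 were Cxcl3 (0.184), Usp18 (0.186), Cfb (0.203), Ifit3 (0.204), Phf11b (0.244), Zbp1 (0.248), H2-T24 (0.283) and Susd2 (0.305). Cxcl3, a neutrophil attractant gene, averaged 142.3 FPKM in transwell and 24.9 in contact. After Ccl2, the genes nearest Ccl7 were Usp18 (0.148), Cfb (0.218), Zbp1 (0.229) and Irf7 (0.244). Ccl12 was farther from both, and 69 of the compared genes lay nearer to Ccl2 than it did. The genes nearest Ccl12 were Itgb3 (0.125), Slc6a12 (0.162), Plin2 (0.169) and Slc48a1 (0.205), with fitted log2 differences of -1.68 to -1.18. At about 1 to 3 CPM in transwell, Ccl12 lies near the added 1 CPM, which compresses its profile on this scale.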

How the data were processed

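The authors deposited raw read counts and FPKM per Ensembl gene for each library, per the file headers. Recomputing FPKM from count, deposited exonic length and library total matched 99.93% of values to within 1% where the count was above 100. GRCm38 and mm10 are named in the submitters' processing notes. The sources used here do not give the aligner, counter, annotation or strand setting. The deposited table and GENCODE M21 (GRCm38) shared 52073 gene IDs but matched in start and end for only 1472 of them, so positions are GENCODE's by gene ID.

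Groups and replicate numbers came from the sample titles. Genes were filtered with filterByExpr (minimum count 10), scaled with TMM and compared with edgeR 4.0.16 (R 4.3.3) by its quasi-likelihood test, two-sided, with Benjamini-Hochberg adjustment over all 14113 tested genes and a threshold of 0.05. The SE is the absolute log2 difference over the square root of F. TMM factors were 1.035 to 1.052 in contact and 0.9533 to 0.9702 in transwell libraries, so fitted differences are lower than ratios of FPKM. The common biological coefficient of variation was 0.122. Alternatives used limma 3.58.1, DESeq2 1.42.0, other scalings and filters, a replicate block and each library left out in turn. On simulated counts for contact against transwell over 14113 genes, edgeR called 34 of 67 genes with a planted 1.5-fold change, 64 of 67 with 2-fold and 66 of 66 with 4-fold. False calls made up 2.38%. The simulation changed only a small set of genes and gave every gene the common variation. In the data 37.5% of tested genes were called and spread differs by gene, so 2.38% is not the false-call rate of this comparison.

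The members and lists were chosen with earlier results of these data known. Named genes are the members, all neighbours and receptors, up to 5 called genes of each other pathway list with the largest absolute log2 difference that reach 1 FPKM in either group, and the 8 genes nearest Ccl2 and 4 nearest each other member. Ccl8, not fitted, has no profile, and genes without a symbol were also left out of that search. Some genes that this rule takes in are not reported here. Marker genes are given mainly as sums. Coding sequences were aligned globally with Biopython 1.88, and figures drawn with matplotlib 3.10.9.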

Additional observations from a re-analysis of the deposited data

How the results depend on the processing

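The 3 fitted members kept their direction under all 17 alternatives. Leaving out each library in turn gave log2 differences of -2.79 to -2.53 for Ccl2, -2.65 to -2.37 for Ccl7 and -4.40 to -3.32 for Ccl12, the last without contact replicate 2. With limma on log2(FPKM + 1), Ccl2 stood at -2.45 and Ccl12 at -1.78, and after quantile normalization Ccl12 stood at -1.97; the added 1 FPKM shrinks differences of low genes by construction. With the epithelial markers left out before scaling, Ccl2 stood at -2.64. That setting removes only the marker genes, so it cannot show what epithelial RNA does to the level of Ccl2, which was not tested. As ratios of counts without length, Ccl2 to Ccl7 was 2.24 in contact and 2.46 in transwell, Ccl2 to Ccl12 was 202.7 and 62.3, and Ccl7 to Ccl12 was 25.2 in transwell, since gene length drops out. Genes lower in contact numbered 1450 with library totals alone, 3418 after quantile normalization, 1422 with limma on log2(FPKM + 1) and 1442 on log2(FPKM + 0.1); the cause was not tested. List medians moved with library totals to -0.11 for receptor signalling, -0.10 for interferon signalling, 0.32 for cytokines and sensors and 0.21 for mRNA decay.

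Leaving out each library in turn gave 2465 to 3093 genes higher and 1577 to 2217 lower, and 45 to 53 pathway genes higher and 31 to 40 lower against 52 and 41. Ccr3 ranged from -0.29 to 0.0293, with its sign changed without transwell replicate 2. It passed the test in none of these.

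Deviations of same-numbered contact and transwell libraries from their group means correlated at 0.061, -0.417 and 0.131, so the numbers were not taken as pairs. With the replicate number as a block, 2994 genes were higher and 2130 lower, Ccl2 stood at -2.63, Ccl7 at -2.49 and Ccl12 at -3.78, pathway counts were 53 and 40, and of the pathway genes named Itgb1 lost its call (adjusted p = 0.0522). Depth limits Ccl12 in contact and Ccl8 in both groups.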
